A study of Mus musculus with 4 samples.

Results

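Genes of the Bcl2 family were followed in mouse back skin keratinocytes. A list of 10 genes was chosen by symbol: the survival genes Bcl2, Bcl2l1 and Mcl1, the pore-forming genes Bax and Bak1, the BH3-only genes Bid, Bad, Bcl2l11 and Bbc3, and Trp53. Of these 10, 8 had a named probe set and were measured, out of 12393 genes tested, and Bax and Trp53 were not analysed here. Each gene is represented by its probe set with the highest mean log2 signal over all arrays, and its other probe sets are given beside it. The 8 genes have 23 probe sets in all.

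The bulge group held 2 arrays of living GFP-positive cells sorted as α6high CD34high, which selects basal keratinocytes of the hair follicle bulge, and the total group held 2 arrays of all living GFP-positive cells. Every cell came from K14-GFP-actin mice at postnatal day 49, when back skin follicles rest in telogen, and the keratin 14 promoter that drives the reporter is active in basal keratinocytes. The total group is a mixture that still contains bulge cells. The cell type label reads basal bulge stem cells for all 4 samples, and the groups were taken from the titles, which separate them. The labels do not say whether animals were pooled or whether replicates came from different animals, and the p-values therefore rest on a spread that may be technical.

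Mitochondrial apoptosis is set by a balance within the Bcl2 family. Survival proteins such as Bcl-2, Bcl-xL and Mcl-1 hold the pore-forming effectors in check, and BH3-only proteins such as Bim, Bid, Bad and Puma relieve that restraint or activate the effectors directly. The transcription factor p53 induces several of these genes after DNA damage, together with genes of cell cycle arrest and DNA repair. In mouse skin, bulge stem cells have been described as more resistant to death after DNA damage than other epidermal cells, with Bcl-2 and p53 turnover named among the factors involved.

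Cd34, which chose the cells, had signals of 15697 and 14034 on the bulge arrays, against 844 and 1144 on the total arrays, as the labels require. Itga6, the α6 integrin gene of the same gate, had signals of 3312 and 1693 on the bulge arrays, against 5642 and 3491 on the total arrays, so its mRNA was not higher although the gate asked for high surface protein. The arrays share a trimmed mean signal of 500.0, and their medians ran from 123.6 to 145.01. Over the 5780 genes above background on all 4 arrays, replicate differences had an SD of 0.87 on the log2 scale in the bulge group and 0.49 in the total group. Over all genes, the bulge arrays lay above the total arrays without overlap for 18.0% and below them for 20.5%, the shares to set beside the marker counts that follow. Of 12 bulge markers, 11 were higher in the bulge group without overlap, Cd34 of the gate among them, and Itga6 was the exception. Of 5 endothelial markers, listed because Cd34 also marks vessels, 4 were below background on both arrays of each group and none differed without overlap. Among 6 fibroblast markers 1 was higher without overlap (Col1a2) and 3 lower, the 3 with both group means below background. The fibroblast markers summed to signals of 4335 and 1764 on the bulge arrays, against 701 and 557 on the total arrays. Among 6 melanocyte markers 1 was higher (Mitf) and 5 lower. They summed to 6979 and 3185 on the bulge arrays, against 2733 and 1941 on the total arrays. Mitf, with 6125 and 2460 on the bulge arrays, made up most of the sum there. Among 6 suprabasal markers 0 were higher and 2 lower. Leukocyte markers were low in the sorted bulge cells. The 8 T cell markers summed to signals of 256 to 519 in the bulge group and 2091 to 3675 in the total group, and all 8 were lower without overlap. The 10 Langerhans and myeloid markers summed to 1180 to 1646 in the bulge group and 11632 to 13057 in the total group, 9 of them lower without overlap. The pan-leukocyte gene Ptprc was below background on both bulge arrays, and the myeloid receptor gene Csf1r had signals of 236 and 300 there, against 2316 and 4803 on the total arrays. The 10 cell cycle genes measured summed to 6388 to 6931 in the bulge group and 13338 to 15753 in the total group, 9 of them lower without overlap. In sorted populations, fewer cells of a type and less RNA per cell cannot be told apart. The part of these shifts in the results below was not tested.

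The comparison asks how the cell death genes of telogen bulge basal cells differ from those of the whole epidermis. The survival genes Mcl1 and Bcl2l1 overlapped between the groups, the BH3-only gene Bad was higher on both bulge arrays, and the signals of Bcl2, Bak1, Bid and Bbc3 lay around or under the background of the platform. None of the 8 genes passed the test: 0 were called higher and 0 lower at an adjusted p of 0.05 in limma, where 0.0% of the 12393 genes were called in either direction. Limma with an intensity trend also called 0 of the 8, while it called 0.557% of all genes higher and 0.524% lower. At an unadjusted p under 0.05, 1 of the 8 was higher (Bid) and 1 lower (Bak1), against 5.18% of all genes higher and 5.29% lower. Both arrays of the bulge group lay above both total arrays for 2 genes, Bid and Bad, and below them for 1, Bak1. The same held for 18.0% of all genes in the higher direction and 20.5% in the lower, so the members' counts are near the background. The median log2 difference, bulge minus total, was 0.14 over the 8 genes and -0.02 over all genes.

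**Figure D1:**
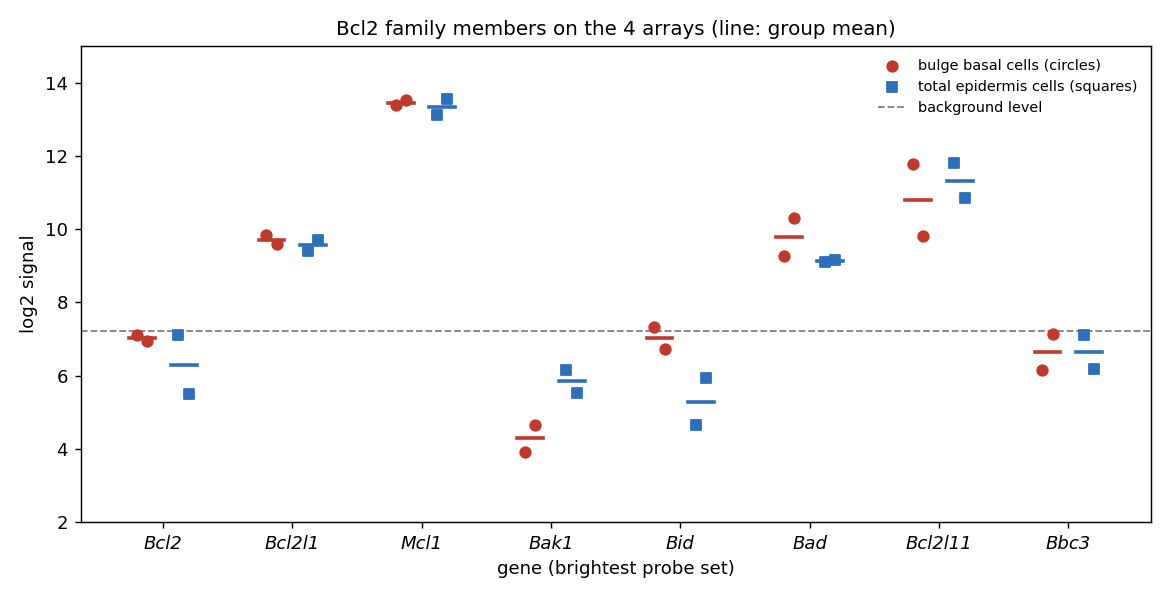
Log2 signal of the 8 measured genes on each array (points) with the group mean (line), for bulge basal cells and total epidermis cells, and the background level of 7.23 (dashed). Bcl2, Bak1 and Bbc3 lie under the dashed line on all 4 arrays and Bid lies above it on 1 bulge array; signals of different probe sets are not comparable with each other.

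Among the survival genes, Mcl1 encodes a short-lived protein that restrains Bak and Bim. Its representative probe set had signals of 10737 and 11704 on the bulge arrays, against 8788 and 11929 on the total arrays. The groups overlapped, and the log2 difference was 0.13 ± 0.39 (SE, n = 2 each), with a 95% interval of -0.86 to 1.12 and an adjusted p of 0.969 in limma. Without total replicate 1 the difference was -0.090.

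The other Mcl1 probe sets did not share a direction. All 6 were above background on all 4 arrays, 4 with a positive difference and 2 with a negative one, from -0.60 to 0.38. The representative probe set and the other 2 whose names carry the suffix x, a mark of probes that may match other sequences, gave overlapping groups and differences of 0.13, 0.18 and 0.09. The remaining 3 probe sets, built on the same mRNA accession as each other, gave groups that did not overlap, in opposite directions. The first of these had signals of 2969 and 3281 on the bulge arrays, against 2141 and 2685 on the total arrays, a difference of 0.38. The second had 2641 and 2240 on the bulge arrays, against 3149 and 4318 on the total arrays, a difference of -0.60. The third had 756 and 771 on the bulge arrays, against 1020 and 1154 on the total arrays, a difference of -0.51. These differences are values with no test. The direction for Mcl1 thus depends on which of its probe sets is read.

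**Figure D2:**
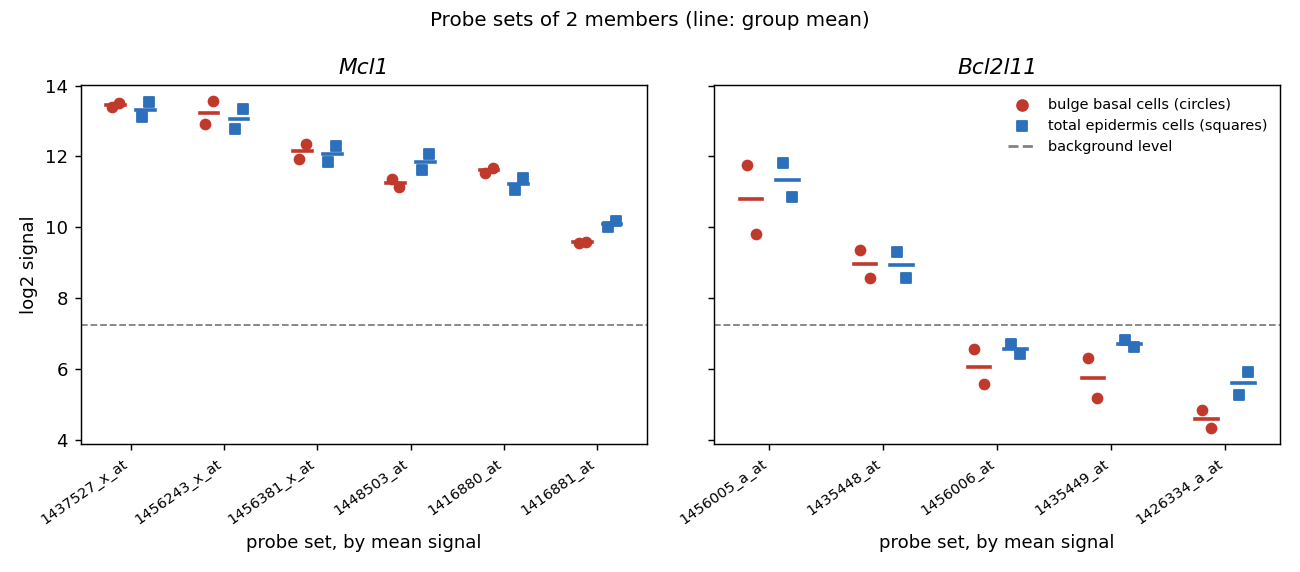
Log2 signal of each probe set of Mcl1 and Bcl2l11 on the 4 arrays (points; lines are group means), ordered by mean signal, with the background level dashed. From the left, the fourth and the sixth Mcl1 probe sets have both bulge arrays under both total arrays, while the fifth has them above; 3 of the 5 Bcl2l11 probe sets lie under background on all 4 arrays.

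Bcl2l1, which encodes the survival protein Bcl-xL and a shorter isoform that promotes death, had signals of 915 and 774 on the bulge arrays, against 677 and 840 on the total arrays. The groups overlapped, with a log2 difference of 0.16 ± 0.38 (SE, n = 2 each), an interval of -0.82 to 1.13 and an adjusted p of 0.959 in limma. The other 3 Bcl2l1 probe sets were below background on all 4 arrays. An array summary of the gene cannot separate its isoforms.

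Bcl2, the founding survival gene of the family, was read by 1 probe set, which was below background on all 4 arrays. Its signals were 138 and 124 on the bulge arrays, against 138 and 45 on the total arrays, where the background signal was 150. Total replicate 1 was level with the bulge arrays, and total replicate 2 alone was low. No fold is given for a gene below background in both groups. The fitted log2 difference was 0.73, with an interval of -0.84 to 2.29 and an adjusted p of 0.836 in limma, and it was -0.075 without total replicate 2. A difference in Bcl2 mRNA between the groups was not detectable at this signal.

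Bcl2l2, the gene of the survival protein Bcl-w, lies outside the chosen 10 and had signals of 502 and 407 on the bulge arrays, against 399 and 324 on the total arrays. The difference of 0.33 (95% interval -0.65 to 1.32) had an adjusted p of 0.903 in limma. Both bulge arrays lay above both total arrays, by little, as for 18.0% of all genes. The other Bcl2l2 probe sets gave differences of 0.52, -0.55 and 0.06, the first above background on 2 arrays and the others on none. Bcl2l10 was below background on all 4 arrays. Of the 8 survival genes listed, 5 were measured, 0 were called, and the median difference was 0.16.

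Among the BH3-only genes, Bcl2l11 encodes Bim, an activator of Bax and Bak that binds every survival protein of the family. Its representative probe set had signals of 3491 and 897 on the bulge arrays, against 3591 and 1835 on the total arrays. Replicate 1 was high and replicate 2 low in both groups, and the groups overlapped. The log2 difference was -0.54 ± 0.77 (SE, n = 2 each), with an interval of -2.48 to 1.41 and an adjusted p of 0.927 in limma. Without bulge replicate 2 the difference was 0.44, but this sets the high bulge array against the mean of a high and a low total array. Among same-numbered arrays the bulge array had the lower signal each time, by little for replicate 1. The second Bcl2l11 probe set above background had signals of 655 and 379 on the bulge arrays, against 635 and 382 on the total arrays, a difference of 0.02. The other 3 probe sets were below background throughout.

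Bad encodes a BH3-only protein that binds Bcl-2 and Bcl-xL and is held inactive by survival kinase phosphorylation. Its signals were 613 and 1256 on the bulge arrays, against 551 and 569 on the total arrays. Both bulge arrays lay above both total arrays, although bulge replicate 1 exceeded total replicate 2 by little and bulge replicate 2 carried most of the difference. The log2 difference was 0.65 ± 0.49 (SE, n = 2 each), with an interval of -0.58 to 1.88 and an adjusted p of 0.794 in limma. Without bulge replicate 2 it was 0.13, and without bulge replicate 1 it was 1.17. The second Bad probe set was above background on 1 array.

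Bid links death receptor signalling to mitochondria once caspase 8 has cut it. Its signals were 162 and 106 on the bulge arrays, against 25 and 61 on the total arrays. Bulge replicate 1 was the only array above background, so no fold is given. The fitted log2 difference was 1.75 ± 0.57 (SE, n = 2 each), with an unadjusted p of 0.0263 and an adjusted p of 0.356 in limma. Its other probe set, with signals of 2.66 to 7.14, gave overlapping groups.

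Bbc3 encodes Puma, a BH3-only protein induced by p53. Its signals were 71 and 141 on the bulge arrays, against 138 and 72 on the total arrays, all below background. The groups overlapped completely, with a fitted difference of 0.01 and an adjusted p of 0.999 in limma. That difference was -0.49 without bulge replicate 2 and 0.50 without bulge replicate 1, and -0.46 without total replicate 2 and 0.48 without total replicate 1, so it has no settled direction.

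Pmaip1, the gene of the BH3-only protein Noxa and a p53 target outside the chosen 10, was at least 1.60-fold lower in the bulge group. Its signals were 94 and 40 on the bulge arrays, both below background, against 218 and 266 on the total arrays. The bound sets the measured total mean against the background level and carries no sampling error. The fit gave an adjusted p of 0.253 in limma. Hrk and Bik, also BH3-only genes, had adjusted p-values of 0.937 and 0.772 in limma. Bik was below background on all 4 arrays, and bulge replicate 1 lay just under total replicate 1 (55.10 against 55.22). Hrk lay near background, with signals of 177 and 145 on the bulge arrays, against 193 and 186 on the total arrays. Of 8 BH3-only genes measured, 0 were called, 2 were higher without overlap (Bid and Bad) and 3 lower (Pmaip1, Bik and Hrk), beside 18.0% of all genes higher and 20.5% lower, which is near these counts for so few genes. The median difference was -0.12.

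Among the effectors, Bak1 encodes a pore-forming protein that sits in the outer mitochondrial membrane. Its signals were 15 and 25 on the bulge arrays, against 72 and 46 on the total arrays. The groups did not overlap, but every value was below background and no fold is given. The fitted log2 difference was -1.56 ± 0.48 (SE, n = 2 each), with an unadjusted p of 0.0207 and an adjusted p of 0.320 in limma. The other Bak1 probe set gave -0.02 with overlapping groups.

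Bok, the third effector of the family and no member of the chosen 10, had the highest difference among the 15 Bcl2 homologues measured. Its signals were 1305 and 2987 on the bulge arrays, against 264 and 569 on the total arrays, all above background. Every bulge array exceeded every total array, and the mean ratio was 5.09-fold. The log2 difference was 2.35 ± 0.62 (SE, n = 2 each), with a 95% interval of 0.77 to 3.93 and an unadjusted p of 0.0119. It did not pass over all genes: the adjusted p was 0.248 in limma and 0.144 in limma with an intensity trend. Bok had 1 probe set, so no other reading of it was at hand.

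**Figure D3:**
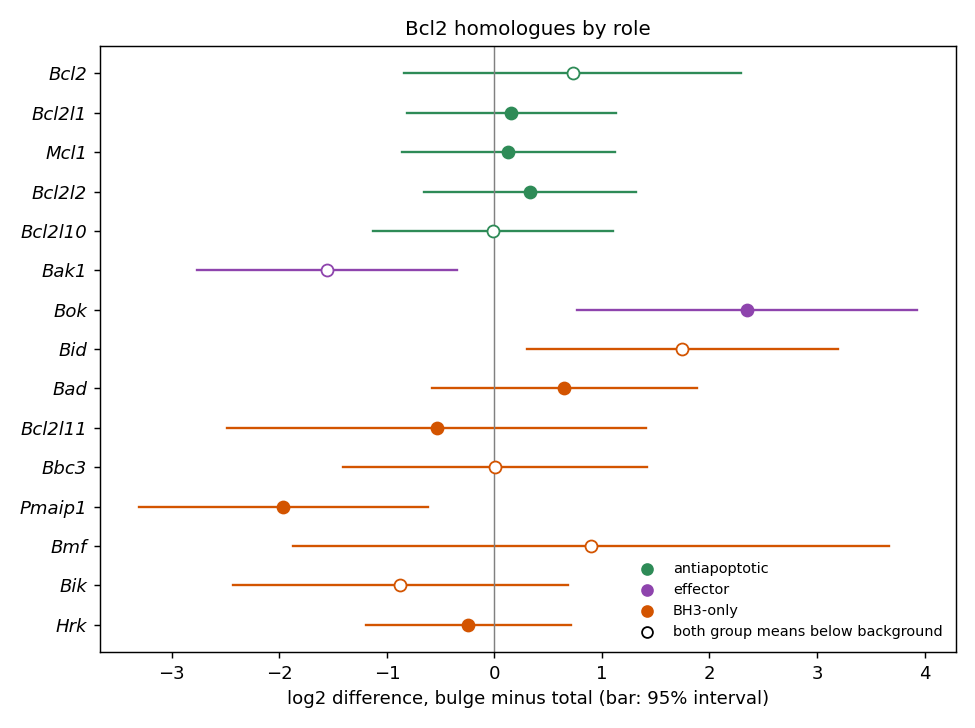
Log2 difference, bulge minus total, of the 15 Bcl2 homologues measured, with the 95% interval of the limma fit (bars), coloured by role; open points have both group means below background. The intervals of Bok and Bid lie above 0 and those of Bak1 and Pmaip1 below it, before adjustment over all genes, and none passed after it.

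Of the 8 measured genes, Mcl1, Bcl2l1, Bcl2l11 and Bad were above background on all 4 arrays. The 120 bases directly upstream of their outermost RefSeq transcription start (GRCm38.p6) are shown for these 4, since theirs are the transcripts the arrays could follow. Capitals mark the GC box GGGCGG and the CCAAT box CCAAT, searched on both strands.
Mcl1, chr3:95658601-95658720, plus strand: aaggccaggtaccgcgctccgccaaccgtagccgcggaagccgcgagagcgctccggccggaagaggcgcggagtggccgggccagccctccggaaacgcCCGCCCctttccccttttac
Bcl2l1, chr2:152831729-152831848, minus strand: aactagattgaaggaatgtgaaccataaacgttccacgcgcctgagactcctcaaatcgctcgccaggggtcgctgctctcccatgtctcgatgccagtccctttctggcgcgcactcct
Bcl2l11, chr2:128125918-128126037, plus strand: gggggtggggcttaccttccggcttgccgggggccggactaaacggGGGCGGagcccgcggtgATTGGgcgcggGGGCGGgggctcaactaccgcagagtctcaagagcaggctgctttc
Bad, chr19:6941741-6941860, plus strand: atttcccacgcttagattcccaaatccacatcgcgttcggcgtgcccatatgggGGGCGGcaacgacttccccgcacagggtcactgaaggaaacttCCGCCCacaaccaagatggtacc
GC boxes numbered 1 for Mcl1, 0 for Bcl2l1, 2 for Bcl2l11 and 2 for Bad, and 26.5% of 32851 RefSeq windows of this length held at least 1. A CCAAT box stood in the Bcl2l11 window, as in 21.3% of all windows, and the TATA box TATAAA was in none of the 4, against 6.34% of all windows. The GC content was 72.5% for Mcl1, 70.8% for Bcl2l11, 57.5% for Bad and 55.8% for Bcl2l1, with a median of 54.2% over all windows. The matches describe these letters alone.

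Downstream of the family, cytochrome c release activates Apaf1 and the caspases. Of 19 genes listed for that machinery, 17 were measured, 0 were called higher and 0 lower, and no gene had an unadjusted p under 0.05. The groups did not overlap for 4, all lower (Casp9, Birc3, Birc5 and Aifm1, named after their values were seen), beside 20.5% of all genes, and the median difference was -0.12. Cycs, the cytochrome c gene, had signals of 2358 and 5616 on the bulge arrays, against 4984 and 6897 on the total arrays, which overlap. Vdac1 and Vdac3, channels of the outer mitochondrial membrane, had differences of -0.11 and -0.20 with overlapping groups. Among 7 measured genes related to the family more distantly, 0 were called. Without overlap 0 were higher and 3 lower (Bcl2l13, Bcl2l14 and Bcl2l15, named after their values were seen), beside 18.0% and 20.5% of all genes. Bcl2l13 was above background on all 4 arrays, with a difference of -0.86. Bcl2l14 and Bcl2l15 were below background on both bulge arrays and on 1 total array. Their total means stood 1.21-fold and 1.25-fold above the background level, a bound that carries no sampling error. The fitted 95% intervals crossed 0, from -1.87 to 0.56 for Bcl2l14 and from -2.35 to 0.38 for Bcl2l15. The adjusted p-values were 0.784 and 0.666 in limma. Bnip3, Bnip2 and Bnipl, the brightest of that list, had differences of 0.11, 0.16 and 0.51, each with overlapping groups.

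Genes around p53 were followed through 2 lists. Of 19 p53 relatives and regulators, 14 were measured, with 0 called in limma over all genes and a median of -0.18. Trp63, the p53 relative that maintains basal keratinocytes, had signals of 8923 and 7109 on the bulge arrays, against 9208 and 8468 on the total arrays. The groups overlapped, with a difference of -0.15 (interval -1.11 to 0.82) and an adjusted p of 0.961 in limma. Usp7, a deubiquitinase of Mdm2 and p53, had a difference of -0.25, and Trp53bp1, a DNA break adaptor, 0.12, both with overlapping groups. Chek1, the DNA damage and replication checkpoint kinase, was the only gene of the list with an unadjusted p under 0.05, and it is named after its values were seen. Its signals were 136 and 112 on the bulge arrays, both below background, against 759 and 564 on the total arrays, at least 4.36-fold lower in the bulge group. Its adjusted p was 0.110 in limma and 0.0509 in limma with an intensity trend, and it passed neither. With genes dropped where both group means lay below background, limma gave Chek1 an adjusted p of 0.0297, under the threshold. That setting called 222 of 7249 genes. Chek1 stayed in it through its total mean alone, as its bulge mean was below background. The filter thus used the group means under comparison, and no call is drawn from it for Chek1. The other Chek1 probe sets were below background on all 4 arrays, with differences of -1.37, 1.59 and -2.53. The cell cycle genes described above were lower on the same arrays, and their part in the Chek1 value was not tested.

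Over the whole list, dim genes included, more targets of p53 lay lower than higher in the bulge group, and none passed the test. Of 30 listed, 27 were measured, 0 were called higher and 0 lower in limma, and 10 were lower and 4 higher without overlap of the groups, the 4 being Rrm2b, Phlda3, Perp and Ddb2. Over all genes these shares were 20.5% lower and 18.0% higher. The median difference was -0.24 over the list, against -0.02 over all genes. Over the 21 targets with a group mean above background it was -0.12, with 7 lower and 4 higher without overlap. Over the 7249 genes with such a mean it was -0.006, with 1596 lower and 1504 higher without overlap. Of the 10 lower targets, Gadd45a, Fas and Pidd1 were below background on all 4 arrays. Pmaip1, Plk2 and Sesn2 had bulge means below background and counted among the 21 through the total group alone. Cdkn1a, Ddit4, Aen and Ei24, the remaining lower targets, were above background on all 4 arrays, as were the 4 higher ones. The excess of lower targets without overlap thus lay in genes dim in the bulge group. Pidd1, Aen and Ei24 are named after their values were seen. Perp, a desmosomal protein gene that p53 and p63 induce, had signals of 15434 and 15505 on the bulge arrays, against 11959 and 14560 on the total arrays, a difference of 0.23. Ddit4, a stress-induced inhibitor of mTORC1, had 6911 and 1331 on the bulge arrays, against 9794 and 8198 on the total arrays, with an adjusted p of 0.649 in limma. Trp53inp1, a p53 cofactor in stress responses, overlapped between the groups.

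An unadjusted p under 0.05 was reached by 5 of the 27 targets, all lower: Pmaip1, Plk2, Sesn2, Gadd45a and Fas, the last 4 named after their values were seen. Over all genes the shares at that threshold were 5.29% lower and 5.18% higher. Plk2, a polo-like kinase, had signals of 125 and 166 on the bulge arrays, against 477 and 999 on the total arrays, with an adjusted p of 0.185 in limma. Sesn2, a stress-responsive regulator of mTORC1, had 156 and 140 on the bulge arrays, against 252 and 360 on the total arrays. Gadd45a and the death receptor gene Fas were below background on all 4 arrays. Cdkn1a, the p21 gene and the classical p53 arrest target, is also named after its values were seen. Its representative probe set had signals of 955 and 2715 on the bulge arrays, against 2874 and 6868 on the total arrays, an adjusted p of 0.600 in limma. On its second probe set the log2 signals were 10.19 and 10.22 on the bulge arrays, against 12.02 and 12.02 on the total arrays, a difference of -1.82. Both probe sets placed the bulge arrays under the total arrays.

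**Figure D4:**
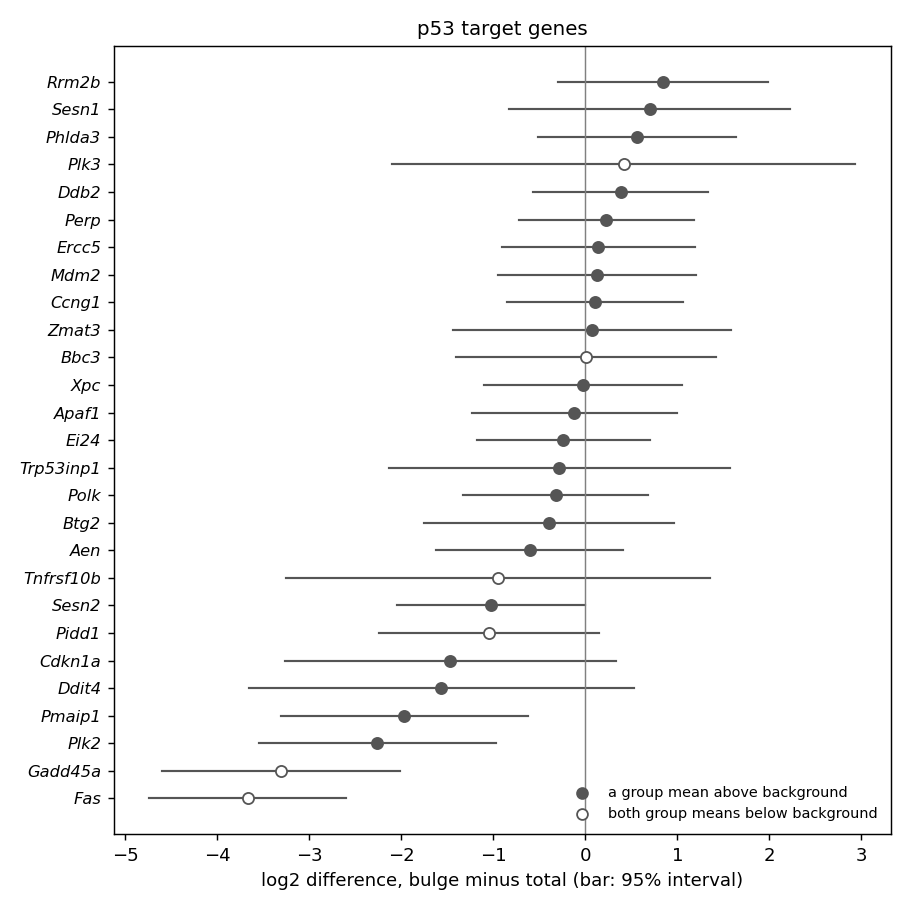
Log2 difference, bulge minus total, of the 27 measured p53 target genes in order of size, with the 95% interval of the limma fit (bars); open points have both group means below background. The filled points run from -2.26 at Plk2 to 0.84 at Rrm2b, the open points, Fas and Gadd45a among them, have no measured size or order, and none of the 27 passed after adjustment over all genes.

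Nonhomologous end joining, the repair route for double-strand breaks in resting cells, showed no called change. Of 9 genes listed, 7 were measured, 0 were called, none had an unadjusted p under 0.05, and the differences ran from -0.33 to 0.66. Signals of the list lay near the background signal of 150, and 4 of the 7 genes were above it on all 4 arrays. Prkdc, the DNA-dependent kinase of the route, had signals of 201 and 239 on the bulge arrays, against 234 and 188 on the total arrays. The difference was 0.07, with a 95% interval of -0.91 to 1.05. Xrcc5 and Xrcc6, which encode the Ku subunits, had differences of 0.09 and 0.02 with overlapping groups. Intervals of this width leave room for changes near 2-fold in either direction.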

How the data were processed

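RNA from sorted cells (200 ng per sample, per the labels' protocols) was amplified and hybridised to Affymetrix arrays. The deposited table holds probe set intensity on a linear scale. Per the submitters' processing notes, the tools were R 2.15.1 with affy 1.36, GCOS and RMA, in no stated role, and which made these values is not given in the sources used here. A trimmed mean of 500.0 on every array (2% removed at each end) is a property of scaling to a target.

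Log2 of the intensity was taken. Of 22690 probe sets, 20380 had 1 symbol in the platform annotation, 691 several, 1555 none and 64 were controls; 20351 were updated by Entrez ID through RefSeq GRCm38.p6. The probe set with the highest mean represented each of 12393 genes. The background level, log2 7.23, was the 95th percentile of 67 olfactory, vomeronasal and taste receptor genes. Where a group lay below it on its 2 arrays, the fold is a bound, and no fold is given where both group means are below it. The test was limma 3.58.1 (R 4.3.3) with group as the term, two-sided. Its p-values were adjusted over all genes (Benjamini-Hochberg), with a threshold of 0.05. Simulated data with independent errors were used to check that the fit returned an added difference, and not to check its error rate. Lists are described by counts and medians. The number of arrays limits the precision. The members and lists were chosen with earlier results of these data known. The rule named all members, the 3 brightest other genes of each pathway list, Cd34, Itga6, Ptprc and Csf1r, and any called gene; it also asked for the genes most like Bcl2 in profile, which were not sought because Bcl2 lay below background. In 13 other settings the variance model, normalization, dim filter, offset, probe set rule, replicate block and arrays were varied.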

Additional observations from a re-analysis of the deposited data

How the results depend on the processing

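None of the 8 genes was called with all arrays or in any of the 13 other settings, and a filter on dim genes left 4 of them (Bcl2l1, Mcl1, Bad and Bcl2l11) in the fit. Over all genes limma called 0, against 134 with an intensity trend, 222 with the filter on dim genes and 37 on log2(signal + 32). Leaving out any 1 array gave 0 calls; the lone array of its group is then assumed to vary like the other group. The sign of the difference changed for 5 genes. With the mean of a gene's probe sets, which takes in dim ones, Bcl2l1 had -0.059 and Mcl1 -0.055, and with the most variable probe set they had -0.39 and -0.60. Leaving out 1 array at a time gave -0.090 to 0.35 for Mcl1, -0.075 to 1.53 for Bcl2, -0.49 to 0.50 for Bbc3 and -1.52 to 0.44 for Bcl2l11. Bad, Bid and Bak1 kept their sign in every setting in which they were fitted, with ranges of 0.13 to 1.58, 0.75 to 2.39 and -1.94 to -0.79. Same-numbered arrays deviated together (r = 0.63 across 5780 genes, which are not independent), but the labels give the number alone. With the replicate block 0 members and 0 genes were called, and the smallest adjusted p was 0.0531, against 0.0729 without it. Signals near background limit what can be said of Bcl2, Bak1, Bid and Bbc3.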
